A study of Mus musculus with 8 samples.

Results

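The Hist1h genes form the large replication-dependent histone cluster of mouse chromosome 13, and their promoter accessibility was examined in alveolar macrophages (AMs) with and without retinoid X receptors. Members were the protein-coding genes of the GENCODE M21 annotation (mm10) whose symbol starts with Hist1h. There were 54 such genes among 21755 protein-coding genes, namely 6 genes for the linker histone H1, 13 for H2A, 15 for H2B, 9 for H3 and 11 for H4. A promoter was counted as open in a library when that library had an accessible region (peak) with its summit within 1000 bp of an annotated transcription start site (TSS) of the gene. Such peaks were merged across libraries where they shared a base, which gave 43 promoter regions out of 82424 merged regions in all.

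Replication-dependent histone genes supply the core histones H2A, H2B, H3 and H4 and the linker histone H1 that package newly made DNA, and they are transcribed mainly during S phase. Their short, mostly intronless transcripts end in a stem-loop instead of a poly(A) tail, and NPAT, a substrate of cyclin E and CDK2, activates them in nuclear histone locus bodies. Resident AMs are long-lived cells of the airspaces that can renew themselves locally. The study states that monocytes from the bone marrow also contribute to them in adult mice. A question of the study was how loss of the receptors affects the AM population.

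ATAC-seq, which reads out where a transposase can reach the DNA, was done on AMs sorted from bronchoalveolar lavage of adult C57BL/6J mice. The study text gives these as mature AMs in both genotypes, while some supplementary legends name immature AMs in the receptor-deficient group. Of the 8 libraries, 4 (replicates 1_2, 1_3, 3 and 4, called WT) came from littermates without Cre that carried the floxed alleles (CD11cCre- Rxrab fl/fl). The other 4 (replicates 1_2, 1_3, 2 and 3, called KO) came from CD11cCre+ Rxrab fl/fl mice, in which Cre acts in cells that express CD11c and removes both Rxra and Rxrb. Both groups thus carried the floxed alleles, and the sources used here do not say whether replicates 1_2 and 1_3 came from the same animal, in which case p-values would measure partly technical spread.

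The lists held 60363 to 72484 peaks. Each summit's number of overlapping tags (transposase cuts extended to 200 bp) was worked back from the deposited statistics, and the genome-wide background of 1.12 to 2.26 tags per library gives the relative depth. The deleted Rxra and Rxrb segments were not located here, so the labels were not checked directly. Of 18 Rxra regions 13 had peaks in all 8 libraries, and the 1 region at chr2:27744546-27744950 had a peak in every WT library (38, 46, 38 and 42 tags) but in no KO library. The Rxrb promoter was open in all 8 libraries. Among 10 AM markers, 9 were open in all 8 libraries, with Chil3 the exception. Promoters of other lineages were open in all 8 for 2 of 3 monocyte, 2 of 4 neutrophil and 2 of 4 T cell markers. So were 1 of 4 B cell, 3 of 4 epithelial and 2 of 3 endothelial markers. The open epithelial ones were Cdh1, Epcam and Scgb1a1, of which Cdh1 is also an AM-core gene in the study. The part of other cells in the histone results was not tested.

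Promoter sequences are shown for 6 members that stand for the classes described below. They are RefSeq sequences of GRCm38.p6, from 250 bases before to 50 after the RefSeq start, 5' to 3' along the gene. Capitals mark 4 motifs on either strand, which were TATAAA, the CCAAT box, the octamer ATTTGCAT and the H1 box AAACACA, each also searched as its reverse complement, and no match overlaps another in the sequences printed. Hist1h2ac (chr13:23683910-23684209, minus strand) belongs to the region with most summit tags, and Hist1h2bk (chr13:22035571-22035870, plus strand) to the one Hist1h region called higher in KO, a call lost in 11 of 17 other settings. Hist1h4c (chr13:23698409-23698708, minus strand) is the H4 promoter with most summit tags. Hist1h1t (chr13:23695561-23695860, plus strand) and Hist1h2ba (chr13:23934107-23934406, minus strand) had no peak, and Hist1h1d (chr13:23554782-23555081, plus strand) had none at its GENCODE start but did at the RefSeq start used here.
Hist1h2ac: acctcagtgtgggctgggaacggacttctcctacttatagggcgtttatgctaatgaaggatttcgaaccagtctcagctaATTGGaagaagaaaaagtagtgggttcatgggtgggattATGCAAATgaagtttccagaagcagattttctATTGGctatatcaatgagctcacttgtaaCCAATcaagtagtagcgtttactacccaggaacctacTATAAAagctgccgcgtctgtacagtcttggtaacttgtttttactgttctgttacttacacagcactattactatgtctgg
Hist1h2bk: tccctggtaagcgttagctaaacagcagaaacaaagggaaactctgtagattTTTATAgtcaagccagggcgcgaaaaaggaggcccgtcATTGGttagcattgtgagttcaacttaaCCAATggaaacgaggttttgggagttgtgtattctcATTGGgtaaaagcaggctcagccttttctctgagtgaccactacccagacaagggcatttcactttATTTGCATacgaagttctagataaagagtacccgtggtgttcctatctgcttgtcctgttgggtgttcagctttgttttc
Hist1h4c: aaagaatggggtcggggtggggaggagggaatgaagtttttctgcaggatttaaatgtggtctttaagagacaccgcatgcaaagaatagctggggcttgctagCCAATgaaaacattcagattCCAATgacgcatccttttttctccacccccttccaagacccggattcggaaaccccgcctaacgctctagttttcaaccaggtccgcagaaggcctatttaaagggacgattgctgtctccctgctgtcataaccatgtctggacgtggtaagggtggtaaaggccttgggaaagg
Hist1h1t: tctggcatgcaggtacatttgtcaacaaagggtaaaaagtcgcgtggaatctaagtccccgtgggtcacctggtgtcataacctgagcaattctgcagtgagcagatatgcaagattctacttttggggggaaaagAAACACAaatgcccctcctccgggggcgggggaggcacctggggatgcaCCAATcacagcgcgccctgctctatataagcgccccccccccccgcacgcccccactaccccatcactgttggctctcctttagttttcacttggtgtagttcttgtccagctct
Hist1h2ba: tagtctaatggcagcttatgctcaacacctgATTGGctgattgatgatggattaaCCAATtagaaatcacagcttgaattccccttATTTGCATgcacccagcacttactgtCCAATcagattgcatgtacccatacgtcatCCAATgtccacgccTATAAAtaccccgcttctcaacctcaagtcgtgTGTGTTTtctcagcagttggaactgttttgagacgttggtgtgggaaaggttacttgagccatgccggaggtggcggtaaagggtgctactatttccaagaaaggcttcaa
Hist1h1d: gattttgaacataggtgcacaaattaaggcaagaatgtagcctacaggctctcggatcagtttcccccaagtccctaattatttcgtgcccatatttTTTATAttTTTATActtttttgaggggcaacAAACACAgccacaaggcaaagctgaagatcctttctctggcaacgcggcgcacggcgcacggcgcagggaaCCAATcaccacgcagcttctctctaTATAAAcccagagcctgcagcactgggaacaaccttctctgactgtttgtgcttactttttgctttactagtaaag

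Most Hist1h promoters were open in every library. Of the 54 genes, 42 (77.8%) had a promoter peak in all 8 libraries, 3 (5.56%) in 1 to 7 and 9 (16.7%) in none. Among the other 21701 protein-coding genes the shares were 55.5%, 6.8% and 37.7%. All 9 H3 genes, Hist1h3a to Hist1h3i, were open in every library. So were 12 of 15 H2B genes (Hist1h2bb, 2bc, 2be, 2bf, 2bg, 2bh, 2bj, 2bk, 2bl, 2bm, 2bn and 2bp), 9 of 13 H2A genes (Hist1h2ab, 2ac, 2ad, 2ae, 2ag, 2ah, 2ai, 2ak and 2an), 9 of 11 H4 genes (Hist1h4a, 4b, 4c, 4d, 4f, 4h, 4i, 4j and 4n) and 3 of 6 H1 genes (Hist1h1a, Hist1h1c and Hist1h1e). Genes open in some libraries were Hist1h4k, Hist1h2af and Hist1h1b, and genes open in none were Hist1h2bq, Hist1h2ao, Hist1h4m, Hist1h2ap, Hist1h2br, Hist1h1d, Hist1h1t, Hist1h2ba and Hist1h2aa.

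**Figure D1:**
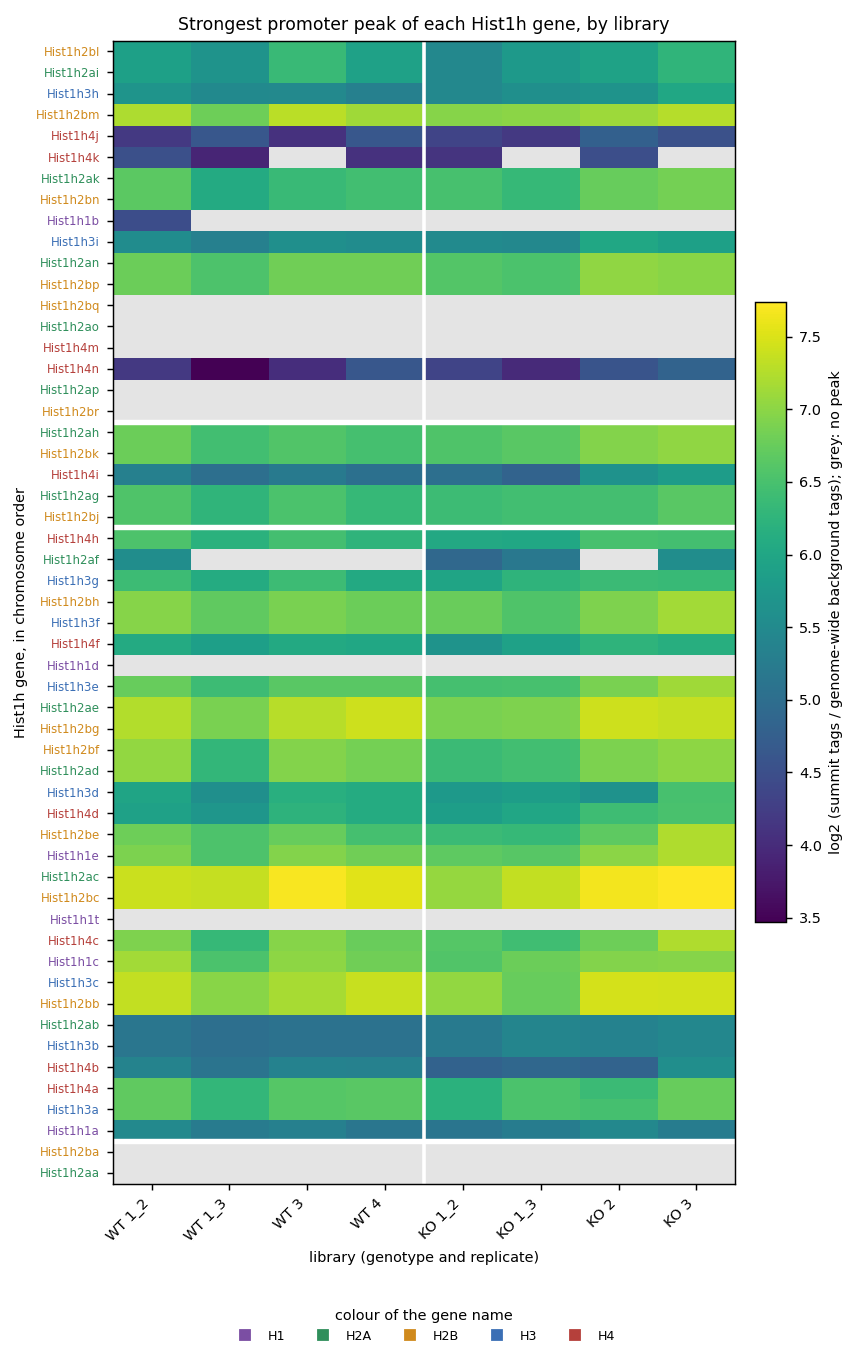
Each row is one of the 54 Hist1h genes in chromosome order and each column a library, with colour giving the log2 ratio of summit tags at the gene's strongest promoter peak to the genome-wide background tags, and grey a library without a peak; white horizontal lines separate the 4 subclusters. Grey rows run across all 8 libraries for 9 genes, and mixed rows are seen only for Hist1h4k, Hist1h2af and Hist1h1b.

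The cluster is split by gaps of more than 100000 bp into 4 subclusters. The first (chr13:21715763-21837530) had 11 of 18 genes open in all libraries, the second (chr13:22035164-22043676) 5 of 5, the third (chr13:23531050-23764406) 26 of 29 and the last (chr13:23933773-23934851), which holds Hist1h2ba and Hist1h2aa, 0 of 2. Other protein-coding genes lie between the histone genes. Of their 49 gene records, 5 were open in all libraries and 41 in none, among them all 36 records of Vmn1r vomeronasal receptor genes (Vmn1r216 is annotated more than once).

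The 43 promoter regions comprised 36 with a peak in all 8 libraries and 7 with peaks in 1 to 7. Of the 43, 15 lay within reach of 2 or more genes, and 8 sat between the starts of a divergent H2A and H2B pair, which share a promoter. All 8 divergent regions were open in all libraries, but a region exists only where a peak was called. The divergent H2A and H2B pairs Hist1h2ao and Hist1h2bq, Hist1h2ap and Hist1h2br, and Hist1h2aa and Hist1h2ba had no peak and are not among them. The summit lay upstream of the nearest start in 35 regions and within 250 bp of it in 34.

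A peak within 1000 bp did not always sit at the start itself. Of the 42 genes open in all libraries, 35 had a summit within 250 bp in all 8, and 7 did not (Hist1h3h, Hist1h4j, Hist1h4h, Hist1h3f, Hist1h1c, Hist1h2ab and Hist1h4a). Hist1h3h had a summit that close in 3 libraries and Hist1h2ab in 1. For Hist1h3f it was in 0 libraries, since its nearest region had a median summit 388.5 bp downstream of the start.

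The 7 regions missing from some libraries were weak where they were called, with a mean strength percentile (rank of the fold over background within a library's list) of 0.96 to 5.79. At Hist1h4k, an H4 gene, tags were 33, 34 and 24 in WT 1_2, 1_3 and 4 and 32 and 31 in KO 1_2 and 2. At Hist1h2af, an H2A gene, there were 68 tags in WT 1_2 and 56, 60 and 53 in KO 1_2, 1_3 and 3. At Hist1h1b, which encodes the linker histone H1.5, WT 1_2 alone had a peak, with 32 tags. These 3 genes depend on a single region each, and none of the 3 separated the genotypes.

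The other 4 partial regions belonged to genes that were also reached by a region open in all libraries. At the Hist1h3h start there were 58 tags in WT 1_3, 63 in WT 3 and 48 in KO 2. Near Hist1h4j, 22 and 16 tags were found in WT 1_3 and 3 and 21, 12 and 11 in KO 1_2, 2 and 3. Between Hist1h2an and Hist1h2bp, WT 1_3 alone had a further peak with 42 tags, and at Hist1h2ab WT 1_2 alone had one with 39. A library without a peak is one in which the calling threshold was not reached, and its tags are not in the lists.

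The 9 genes without a peak fell into groups by their sequence and annotation. Around each gene's start, the share of 50-base windows within 1000 bp that occur more than once in the assembled genome was counted, since the authors kept only alignments of mapping quality above 30. It was 100% at Hist1h2bq, Hist1h2ao, Hist1h2ap and Hist1h2br and 93.0% at Hist1h4m, against a median of 24.0% over the 42 genes open in all libraries and of 0% over 784 other genes of chromosome 13. The windows of Hist1h2bq were shared to 99.9% with those of Hist1h2br, and those of Hist1h2ao to 98.5% with those of Hist1h2ap. The part of mapping in these missing peaks was not tested.

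The exception among such genes was Hist1h4n, with 92.0% repeated windows and 78.0% of the windows of Hist1h4m in common with it. It was open in all 8 libraries, with 26, 25, 26 and 35 tags in WT and 38, 26, 33 and 32 in KO, a mean of 30.1. Its local background, the tags the caller took from the surrounding sequence, was no higher than the genome-wide value, the lowest of the 36 regions open in all libraries.

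**Figure D2:**
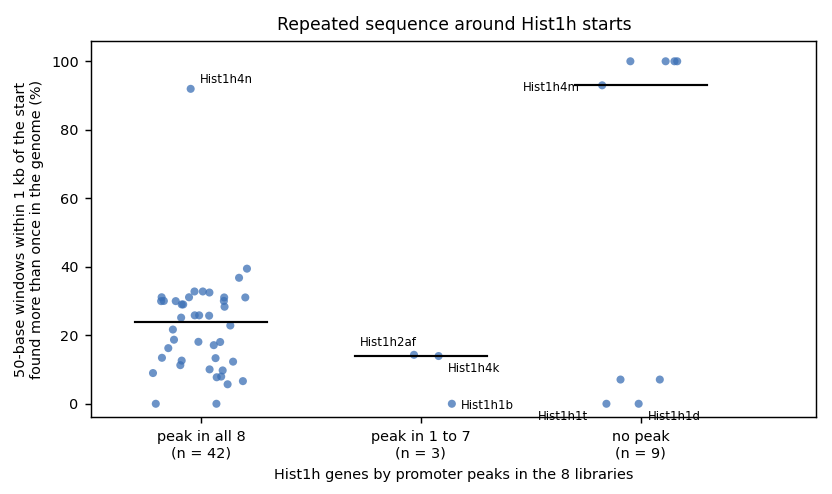
Each point is a Hist1h gene, grouped by promoter peaks in the 8 libraries, and the height is the percent of 50-base windows within 1000 bp of its start found more than once in the genome, with black lines at the group medians. Of the 9 genes without a peak, 5 lie at 93.0% or above and 4 at 7.07% or below.

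Hist1h1t, Hist1h2ba and Hist1h2aa encode histone forms made in male germ cells, and their windows were mostly unique (0%, 7.07% and 7.07% repeated). None had a peak in any library, also within 2000 bp. Hist1h1d, an H1 gene whose windows were unique (0% repeated), differed from them. Its GENCODE start lay 1770 bp from the RefSeq start, where all 8 libraries had a peak with 27, 49, 49 and 47 tags in WT and 44, 42, 56 and 55 in KO. With RefSeq starts for the 51 members matched to that table, an alternative chosen after the data had been seen, 43 genes were open in all libraries and 8 in none. Tags at this Hist1h1d region did not pass the test between genotypes (log2 difference 0.44, SE 0.18, limma adjusted p = 0.107). Hist1h2be likewise had a second RefSeq start 35108 bp from its GENCODE starts, with 105 to 160 tags in the 8 libraries.

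Strength differed widely between members. Over the 36 regions open in all libraries the mean number of summit tags ran from 21.4 to 280 with a median of 122, against a median of 110 at 14037 other protein-coding promoter regions open in all libraries. The median strength percentile was lower, at 58.3 against 71.8, and the local background was higher, at 5.96 against 4.54 times the genome-wide value. Tags and fold thus ordered the histone promoters differently against other promoters, and regions of a crowded cluster are not independent of their neighbours.

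The most tags were found at the divergent promoter of Hist1h2ac and Hist1h2bc (chr13:23683521-23684380), an H2A and H2B pair. Its summit had 242, 371, 331 and 265 tags in WT 1_2, 1_3, 3 and 4 and 248, 267, 279 and 240 in KO 1_2, 1_3, 2 and 3. The highest strength percentile, 97.3, belonged to the divergent Hist1h2ah and Hist1h2bk promoter (chr13:22035183-22035976), whose local background was 3.34 times the genome-wide value. Hist1h2bm followed at a percentile of 93.2, with 214, 250, 250 and 199 tags in WT and 232, 211, 190 and 172 in KO. The WT and KO values overlapped at Hist1h2ac and Hist1h2bc and at Hist1h2bm.

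Hist1h2ac and Hist1h2bc, with the most summit tags, came next by percentile at 87.7, followed by Hist1h3e at 85.9, which had 154, 189, 160 and 142 tags in WT and 165, 149, 162 and 157 in KO. The region between Hist1h3c and Hist1h2bb, at 82.2, had 233, 286, 231 and 237 tags in WT and 245, 176, 242 and 195 in KO. The divergent Hist1h2ak and Hist1h2bn promoter, at 82.1, had 146, 153, 131 and 123 tags in WT and 168, 132, 148 and 130 in KO. Unscaled WT and KO tags overlapped at each of these 3 regions.

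At the low end, Hist1h1a, an H1 gene, had a percentile of 9.54 with 64, 86, 64 and 50 tags in WT and 65, 63, 61 and 43 in KO. A second Hist1h3e region, with its summit at -958 bp from the start, had 40, 42, 30 and 26 tags in WT and 33, 41, 41 and 39 in KO. The Hist1h3c start had 53, 54, 55 and 45 tags in WT and 56, 38, 38 and 51 in KO. Hist1h3i, at a percentile of 15.7, had 67, 91, 77 and 66 tags in WT and 85, 73, 89 and 67 in KO, and its local background of 9.09 times the genome-wide value was among the highest of the cluster.

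By the type of the nearest gene, H2B regions had a median of 175 tags (8 regions) and H1 regions 177 (3 regions). The medians were 118 for H2A (6), 97.1 for H3 (9) and 80.4 for H4 (10). The median percentile was highest for H2B, at 82.0, and lowest for H3, at 24.6. Each divergent promoter serves an H2A and an H2B gene but was counted under the nearer start alone. The H2A and H2B medians thus do not separate these types cleanly. The 8 divergent promoters had a median percentile of 79.3 and the other 28 regions one of 48.0. The H4 promoter with most tags was Hist1h4c, with 174, 182, 199 and 154 tags in WT and 183, 142, 153 and 168 in KO, while Hist1h4j and Hist1h4n were near the bottom.

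**Figure D3:**
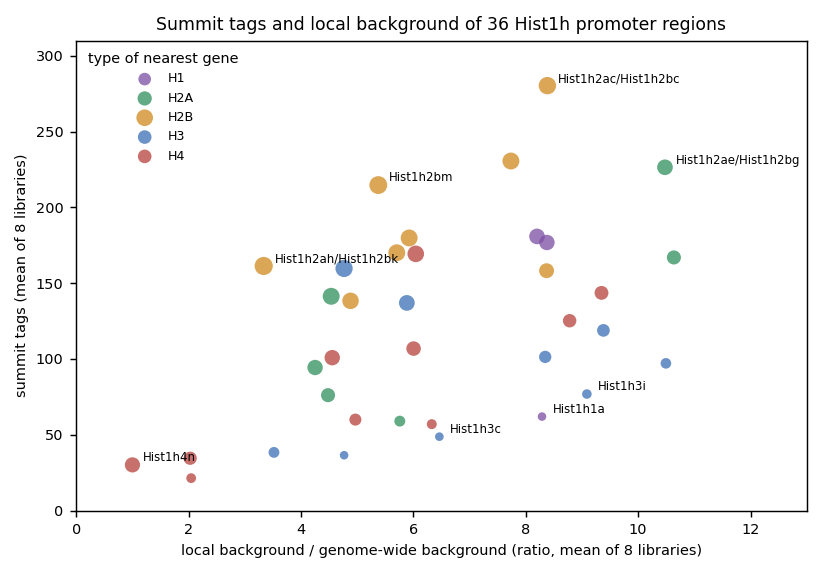
Each point is one of the 36 Hist1h promoter regions open in all libraries, with the local over genome-wide background ratio on the x axis and mean summit tags over 8 libraries on the y axis, coloured by the type of the nearest gene and larger for a higher strength percentile. Hist1h2ah/Hist1h2bk combines 161 tags with a low local background, while Hist1h3i has 76.9 tags on a high one.

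Promoter sequences, not used to choose the members, were described by histone type, with no test. Of the 54 genes, 51 were matched to a RefSeq promoter, and Hist1h3f, Hist1h2bc and Hist1h3a were not. Windows of divergent H2A and H2B pairs overlap, so a motif site there can be counted for both genes. CCAAT was found in 84.3% of the 51 matched promoters, against 37.3% of 32799 other RefSeq promoters of the same length. It was present in 100% of the H1, H2A, H2B and H3 promoters and in 27.3% of the 11 H4 promoters. TATAAA was found in 60.8% against 13.5%, and on the plus strand 45 to 15 bases before the start in 25.5% against 2.21%.

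The octamer, a target of POU factors such as OCT1 (Pou2f1), was found in 19.6% of Hist1h promoters against 1.70% of the others, in 5 H2A and 5 H2B promoters and in no other type. The pairs Hist1h2ah and Hist1h2bk, Hist1h2ae and Hist1h2bg, and Hist1h2ba and Hist1h2aa each shared the same octamer site. The H1 box was found in 17.6% against 7.17%, in 5 of the 6 H1, 2 H2A and 2 H2B promoters. CCAAT was found in 8 of the 9 promoters of genes without a peak and in 33 of 39 of those open in all libraries, and TATAAA in 4 of 9 and 25 of 39. These counts were not tested, and the 9 include Hist1h1d, whose sequence here lies at the RefSeq start, where it had a peak. They also include near-copies such as Hist1h2bq and Hist1h2br, so the promoters are not independent. The median GC content was 45.3% against 52.7%, and the median number of CpG was 11 against 7.

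The comparison of KO with WT asked whether loss of the receptors changed the accessibility of histone promoters. The number of open Hist1h genes per library was the same on average. It was 45, 43, 42 and 43 in WT 1_2, 1_3, 3 and 4 and 44, 43, 43 and 43 in KO 1_2, 1_3, 2 and 3, or 43.25 ± 1.26 in WT and 43.25 ± 0.5 in KO (SD, n = 4 each). No Hist1h region had peaks in all libraries of one genotype and none of the other. Of the 72711 merged regions found in 2 or more libraries, 0.82% were of this kind in WT and 0.285% in KO.

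Summit tags gave a finer comparison at the 36 regions open in all libraries. Log2 tags were centred on each library's median and tested with limma over all 47499 regions open in all libraries. One Hist1h region, the divergent promoter of Hist1h2ah and Hist1h2bk, was higher in KO at an adjusted p under 0.05 and 0 were lower. Over all regions 5.81% were called higher and 7.03% lower. At an unadjusted p under 0.05 in limma, 8 of the 36 Hist1h regions were higher (22.2%) and 0 lower. By the same rule 14.1% of all regions were higher and 12.1% lower, and 18.5% of 14037 other promoter regions were higher and 5.56% lower.

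Hist1h2ah encodes an H2A and Hist1h2bk an H2B, and the region between them had 159, 196, 152 and 127 tags in WT 1_2, 1_3, 3 and 4 and 175, 165, 170 and 147 in KO 1_2, 1_3, 2 and 3. On the centred log2 scale the values were 1.18, 1.10, 1.03 and 1.08 in WT and 1.36, 1.29, 1.49 and 1.36 in KO. Unscaled tags overlapped, while the 4 centred KO values lay above the 4 WT values. The difference was 0.28 (SE 0.091, 95% interval 0.095 to 0.46, limma adjusted p = 0.0343), a 1.21-fold higher level in KO. It kept its sign under every alternative tried, but with tags scaled to the genome-wide background it was 0.22 (adjusted p = 0.617), and it also missed the threshold with quantile scaling, with the deposited fold, with its percentile, with promoter regions alone and without any one of WT 1_3, WT 3, KO 1_2, KO 2 or KO 3.

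The centred log2 tags of the 2 genotypes did not overlap at 3 of the 36 Hist1h regions, all higher in KO. Of all regions, 8.25% were separated upward and 7.91% downward. Of 14037 other promoter regions, 1476 were separated upward and 519 downward. Besides Hist1h2ah and Hist1h2bk, the Hist1h regions concerned were that downstream of the Hist1h2ai start (log2 difference 0.25, limma adjusted p = 0.194) and that downstream of the Hist1h2ab start and upstream of Hist1h3b (0.33, SE 0.14, adjusted p = 0.115). The latter had 51, 74, 54 and 48 tags in WT and 69, 70, 57 and 49 in KO, which overlapped before centring.

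The 2 regions of largest difference did not pass the test either. Hist1h4n, at a mean percentile of 63.2, differed by 0.41 (SE 0.20, limma adjusted p = 0.172), and the upstream Hist1h3e region by 0.39 (SE 0.18, adjusted p = 0.138). Their WT and KO values, listed above, overlapped after centring. Among the regions of high percentile, Hist1h2ak and Hist1h2bn differed by 0.27 (SE 0.10, limma adjusted p = 0.0635). The Hist1h3e region nearest the start differed by 0.19 (SE 0.094, limma adjusted p = 0.179). At the other end of the order Hist1h4b, an H4 gene, had 60, 78, 66 and 58 tags in WT and 52, 49, 39 and 54 in KO, a difference of -0.22 (SE 0.15, limma adjusted p = 0.355).

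**Figure D4:**
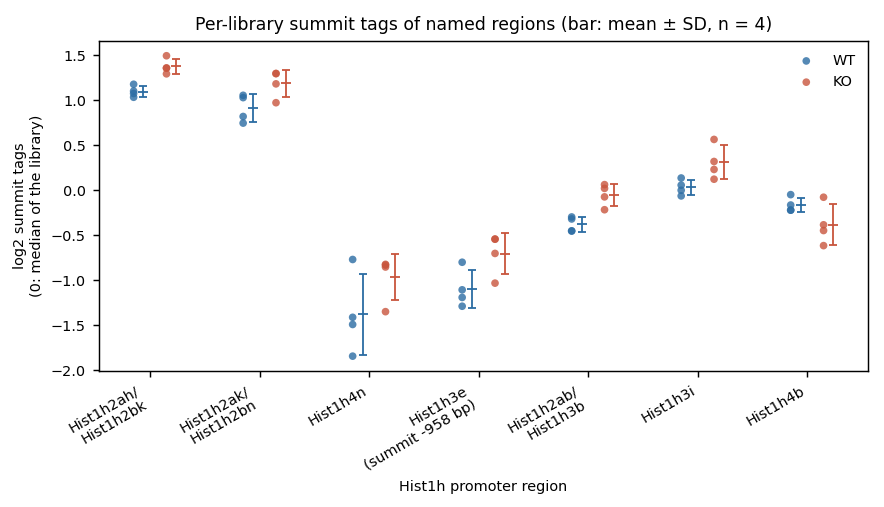
Centred log2 summit tags are shown for each WT (blue) and KO (red) library at 7 Hist1h regions, where 0 is the median of the library over all 47499 regions and bars give the mean and SD of 4 libraries. KO points lie above all WT points at Hist1h2ah/Hist1h2bk and at Hist1h2ab/Hist1h3b, and the groups overlap at Hist1h4n.

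At 3 other promoters with many tags the difference did not pass the test. The log2 difference was 0.01 at Hist1h2ac and Hist1h2bc (95% interval -0.17 to 0.18), 0.03 at Hist1h2bm (-0.14 to 0.20) and 0.003 at the region of Hist1h3c and Hist1h2bb (-0.19 to 0.20). Over the 36 regions the median difference was 0.06, with 28 above 0 and 8 below, but 17 were below 0 with tags scaled to the genome-wide background and 22 with promoter regions alone, where the median was -0.02. The median was 0.09 over 14037 other promoter regions and 0.04 over all regions. By type of the nearest gene the median ran from 0.04 for H1 (3 regions) to 0.12 for H2A (6). By subcluster it was 0.14 in the first (9 regions), 0.23 in the second (3, among them the called region) and 0.04 in the third (24).

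**Figure D5:**
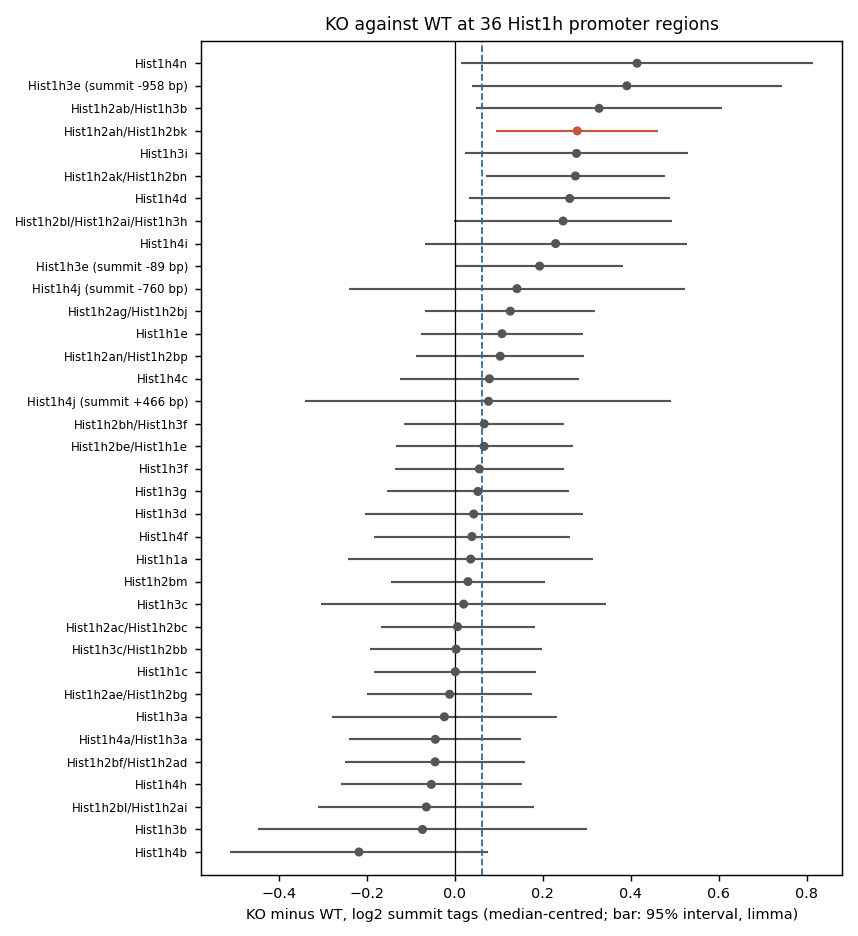
Points give the KO minus WT difference in centred log2 summit tags at the 36 Hist1h promoter regions and bars the 95% interval from limma, sorted by size, with the dashed line at their median of 0.06. The region called at an adjusted p under 0.05, Hist1h2ah/Hist1h2bk, is in red, and the intervals of most others include 0.

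Of 13 other replication-dependent histone genes (Hist2h, Hist3h and Hist4h), 11 were open in all libraries and Hist2h3c1 and Hist2h3c2 in none, and 0 of their 11 regions were called between genotypes. Among 12 replication-independent variants 10 were open in all, H2afy2 in 1 library and the oocyte linker histone H1foo in none. Of their 11 regions, those of H3f3a (log2 difference 0.35, limma adjusted p = 0.00464) and H2afj (0.26, adjusted p = 0.0151) were called higher in KO and 0 lower, where 6.58% of other promoter regions were called higher and 2.99% lower. The calls were lost in 3 and 6 of 17 other settings, and both with tags scaled to the genome-wide background.

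A list of 25 genes was meant for histone transcription and 3' end processing, among them Npat and the stem-loop binding protein Slbp. Of these, 24 were open in all libraries and Ern2, whose place on the list is doubtful, in none. Of the 24 regions of the list, 2 were called higher in KO and 0 lower, with the same shares over other promoter regions. They were those of Pou2f1, which encodes OCT1 (log2 difference 0.40, limma adjusted p = 0.000917), and Ccne1, which encodes cyclin E1 (0.31, adjusted p = 0.0148). The Pou2f1 call was lost in 3 and the Ccne1 call in 6 of 17 other settings, and both were lost with tags scaled to the genome-wide background.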

How the data were processed

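Per the labels and the study's methods, the authors used Cutadapt for trimming and Bowtie2 for alignment to mm10, discarded duplicates, kept alignments of mapping quality above 30, shifted cuts by -100 bp, extended them to 200 bp and ran MACS3 on each library with a q-value limit of 0.05. The lists deposited by the authors give a fold enrichment (a ratio of summit to local background, each with 1 added), the −log10 p-value and −log10 q-value, and a display score that was not used. Read counts were not used here. The deposited fold and −log10 p-value were solved for whole summit tags, which was possible for 100% of peaks within a relative error of 1e-05. Peaks too weak to be called leave no value, and counts of open genes depend on depth.

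Gene starts came from GENCODE M21 and sequences from GRCm38.p6. Log2(tags + 0.5) was compared with limma 3.58.1 (R 4.3.3), trended prior variance and Benjamini-Hochberg adjustment over 47499 regions, and the fit was tested on simulated tags. Members and lists were chosen with earlier results of these data known. Per-library values are given for regions called, the 6 highest and 4 lowest percentiles, regions in 1 to 7 libraries and the 4 largest differences. Hist1h4c, Hist1h4b, Hist1h1d and the second start of Hist1h2be were added after their values were seen. Alternatives were other windows, thresholds, scalings, pseudocounts, start sites and leaving out each library.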

Additional observations from a re-analysis of the deposited data

Results flagged for a closer look

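Within WT and within KO, 84 groups of 4 libraries were looked at, and 4 had a library farther from the rest than Dixon's critical ratio allows. Chance alone flags about 1 in 20 groups. KO replicate 1_2 had 44 open Hist1h genes and the other KO libraries 43 each. Tied values give a ratio of 1 however small the gap, so that chance rate does not hold for this count. At Hist1h4n KO replicate 1_3 had a centred log2 value of -1.35, against -0.85 to -0.82 in the other KO libraries. WT replicate 1_3, the library with the highest background tags, was the low one at the promoter of Hist1h2bf and Hist1h2ad, at 0.96 against 1.41 to 1.44, and at Hist1h3c, at -0.75 against -0.42 to -0.40.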

How the results depend on the processing

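Of the 54 genes, 42 were open in all libraries within 1000 bp, 39 within 500 bp, 47 within 2000 bp and 35 within 250 bp. With a summit within 500 bp, 6 Hist1h genes were open in some libraries, within 2000 bp 1 (Hist1h4k) and, chosen after the data had been seen, within 250 bp 9, against 3. Within 2000 bp Hist1h1b, Hist1h2af, Hist1h1d, Hist1h2ap and Hist1h2br were open in all 8. The Hist1h4n region lies within that reach of Hist1h2ap and Hist1h2br, and the Hist1h3g region within that of Hist1h2af. Leaving out a library gave 42 genes open in all, 2 to 3 in some, 9 to 10 in none and a difference per library of -0.42 to 0.58.

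Regions called between genotypes depended on the scaling, and the cause was not tested. Hist1h regions called numbered 0 with background scaling, quantile scaling, the deposited fold, its percentile and promoter regions alone, and 0 to 3 when a library was left out. There were 2 without WT 1_2 and 2 without KO 1_3 (with Hist1h2ak and Hist1h2bn), 3 without WT 4 (also Hist1h4n) and 0 without each of the other 5. The adjusted p of Hist1h2ah and Hist1h2bk (limma) ran from 0.0298 to 0.617, and its difference from 0.24 to 0.31 when a library was left out. Over all regions, calls were 2760 higher and 3337 lower (45.3% higher), 575 and 1988 (22.4%) with background scaling, 640 and 1038 (38.1%) with the fold, 205 and 997 (17.1%) with the percentile, 227 and 561 (28.8%) with promoter regions alone, and 1824 to 3268 higher and 2625 to 3182 lower when a library was left out.

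Calls in the lists of processing genes and of replication-independent variants, tried after the data had been seen, numbered 0 in each list with background scaling, the fold and its percentile, 1 in each with promoter regions alone, and 1 to 4 in each when a library was left out (4 in each without WT 4, 1 processing gene without WT 1_3 or KO 1_2 and 1 variant without KO 2 or KO 3), against 2 in each.

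Differences near 0 changed sign, with none past the threshold. Background scaling gave -0.025 at Hist1h2bm, -0.049 at Hist1h2ac and Hist1h2bc, -0.035 at Hist1h3c, -0.052 at Hist1h3c and Hist1h2bb and -0.019 at Hist1h1a. Promoter regions alone gave -0.052, -0.076, -0.062, -0.079 and -0.046 there in that order. Quantile scaling gave -0.019 at Hist1h2bm, -0.059 at Hist1h2ac and Hist1h2bc and -0.053 at Hist1h3c and Hist1h2bb, and averaging replicates 1_2 and 1_3 gave -0.018 at Hist1h2bm. Leaving out a library gave -0.029 to 0.069 at Hist1h2bm, -0.073 to 0.063 at Hist1h2ac and Hist1h2bc, -0.085 to 0.13 at Hist1h3c, -0.081 to 0.12 at Hist1h3c and Hist1h2bb and -0.016 to 0.13 at Hist1h1a.

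Replicate names shared by the genotypes did not pair the libraries by the data (correlations of deviations 0.056, 0.12 and 0.037). With them as a replicate block, 1 Hist1h region was called, Hist1h4n (0.58, limma adjusted p = 0.0405), and Hist1h2ah and Hist1h2bk gave 0.23 (adjusted p = 0.0952), Hist1h2ac and Hist1h2bc -0.016, Hist1h3c and Hist1h2bb -0.0054 and Hist1h1a -0.046, with 3595 regions called higher and 3280 lower overall (52.3% higher, all regions), and 5 processing genes and 4 variants called. Depth limits the weak regions, since a summit under the calling threshold has no value.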
